A study of Mus musculus with 96 samples.

Results

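The Cyp3a subfamily of the mouse was followed through liver RNA-seq of 48 male F1 mice. Its 7 members here are Cyp3a11, Cyp3a13, Cyp3a16, Cyp3a25, Cyp3a41a, Cyp3a44 and Cyp3a59, picked by symbol and Ensembl identifier out of the 38924 genes measured. The mice came from reciprocal matings between NOD/ShiLtJ, an inbred strain that develops autoimmune diabetes, and PWK/PhJ, an inbred strain of wild origin, so each mouse carried a NOD and a PWK copy of every autosomal gene. The parent named first (NODxPWK or PWKxNOD) was taken to be the mother. Vitamin D3 (cholecalciferol) made up 0.009 g/kg of the normal diet and 0.050 g/kg of the high diet, which were otherwise matched. Livers were taken at a younger or an older age, and the 8 combinations of cross, diet and age held 6 mice each. The age field has no unit and reads 8 in younger and 24 or 25 in older mice, whereas the protocol gives 15 and 24 weeks, so only "younger" and "older" are used. The 7 mice labelled 25 were all older mice on the normal diet, 5 of them NODxPWK and 2 PWKxNOD. All mice were first-generation hybrids of 1 strain pair and 1 sex, and no group was fed a diet without vitamin D3.

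Cyp3a enzymes are haem-containing monooxygenases of the hepatocyte's endoplasmic reticulum that oxidise drugs, steroids and bile acids, using electrons passed on by cytochrome P450 reductase (Por). The nuclear receptors PXR (Nr1i2) and CAR (Nr1i3) bind drugs or bile acids, pair with RXR and switch on Cyp3a11 and other detoxification genes. The human CYP3A enzymes also hydroxylate vitamin D metabolites, and in mice some family members are more abundant in females than in males. The diet comparison bears on whether extra dietary vitamin D3 goes with altered levels of these enzymes, and the crosses show which parental allele supplies the transcript.

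All 7 genes lie on chromosome 5 and each has 13 exons in its longest coding transcript (GRCm38). Cyp3a13 (ENSMUSG00000029727, 137892932 to 137921619, minus strand) stands apart from the rest. The others form a cluster that holds, in order along the chromosome, Cyp3a16 (ENSMUSG00000038656, 145436309 to 145469723, minus), Cyp3a41a (ENSMUSG00000075551, 145694049 to 145720136, minus) and Cyp3a44 (ENSMUSG00000054417, 145773983 to 145805874, minus). They are followed by Cyp3a11 (ENSMUSG00000056035, 145854426 to 145879964, minus), Cyp3a25 (ENSMUSG00000029630, 145977194 to 146009618, minus) and Cyp3a59 (ENSMUSG00000061292, 146079257 to 146113287, plus). The loci Cyp3a41b and Cyp3a57 of the same cluster are not members but can compete for their reads.

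The start of the coding sequence shows how alike these genes are, which decides how well a read can be assigned. The first 68 coding bases, the length of 1 read, are given 5′ to 3′ from the GRCm38 transcripts. In the 4 sequences below, capitals mark the bases that differ from Cyp3a11.
Cyp3a11: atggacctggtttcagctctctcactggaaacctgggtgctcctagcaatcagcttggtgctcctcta
Cyp3a41a: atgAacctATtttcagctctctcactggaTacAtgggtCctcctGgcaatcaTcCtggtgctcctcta
Cyp3a44: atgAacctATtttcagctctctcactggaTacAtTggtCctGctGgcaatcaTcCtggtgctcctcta
Cyp3a13: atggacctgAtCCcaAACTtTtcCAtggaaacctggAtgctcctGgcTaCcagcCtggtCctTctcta
Cyp3a41a differed at 9 of the 68 bases, Cyp3a44 at 11 and Cyp3a13 at 17. In the next pair, capitals in Cyp3a59 mark the bases that differ from Cyp3a25.
Cyp3a25: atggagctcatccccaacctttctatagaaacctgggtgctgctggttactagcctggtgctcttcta
Cyp3a59: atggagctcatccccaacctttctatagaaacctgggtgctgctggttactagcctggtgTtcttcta
A read from this stretch of Cyp3a59 differed from Cyp3a25 at 1 base. Over the whole coding sequence, Cyp3a25 and Cyp3a59 were 97.5% identical, with 38 of 1509 bases different. Cyp3a11 was 95.2% identical to Cyp3a41a and 94.9% to Cyp3a44 but 76.1% to Cyp3a25 and 76.5% to Cyp3a13. Cyp3a41a and the non-member Cyp3a41b differed at 2 of 1512 coding bases.

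The deposited values are expected counts, in which an estimation step splits a read that fits several genes or both alleles between them. The counts themselves show where this happened. Cyp3a13 shared no 68-base window of its transcript with any other gene, and its NOD plus PWK total was a whole number (within 0.001) in 48 of 48 mice. Cyp3a25 totals were whole in 0 mice, and only the sum of Cyp3a25, Cyp3a57 and Cyp3a59 was whole in 48 of 48. Cyp3a11 was whole in 1 mouse, and its sum with Cyp3a16, Cyp3a41a, Cyp3a41b and Cyp3a44 in 48 of 48. The share of windows found in another gene was 5.05% for Cyp3a11, 13.61% for Cyp3a25, 13.88% for Cyp3a59, 13.09% for Cyp3a44, 2.04% for Cyp3a16 and 96.04% for Cyp3a41a. Levels of Cyp3a13 and of the 2 summed sets therefore rest on no split between paralogs, whereas single values of Cyp3a41a depend on the split almost entirely.

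The promoters printed here are the 250 bases before the annotated start (RefSeq, GRCm38.p6, written 5′ to 3′ on the gene's strand). They are shown for Cyp3a11, the most abundant member, for the look-alike pair Cyp3a25 and Cyp3a59, and for Cyp3a13, which lies apart from the cluster. Capitals mark 4 motifs searched on both strands, namely the nuclear receptor half-sites AGGTCA and AGTTCA, the forkhead (FOXA) motif TGTTTAC and the HNF4A motif CAAAGTCCA.
Cyp3a11 (chr5:145879855-145880104, minus): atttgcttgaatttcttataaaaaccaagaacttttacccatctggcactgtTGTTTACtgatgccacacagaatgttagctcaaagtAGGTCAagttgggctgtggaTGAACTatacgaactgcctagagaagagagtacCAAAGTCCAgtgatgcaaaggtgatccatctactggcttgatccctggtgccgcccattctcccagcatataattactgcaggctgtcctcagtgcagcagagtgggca
Cyp3a25 (chr5:146009618-146009867, minus): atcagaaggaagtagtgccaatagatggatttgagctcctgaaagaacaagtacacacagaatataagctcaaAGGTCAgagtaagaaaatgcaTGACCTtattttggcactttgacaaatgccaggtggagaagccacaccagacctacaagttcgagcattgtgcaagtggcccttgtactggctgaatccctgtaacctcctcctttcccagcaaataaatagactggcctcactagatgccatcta
Cyp3a59 (chr5:146079008-146079257, plus): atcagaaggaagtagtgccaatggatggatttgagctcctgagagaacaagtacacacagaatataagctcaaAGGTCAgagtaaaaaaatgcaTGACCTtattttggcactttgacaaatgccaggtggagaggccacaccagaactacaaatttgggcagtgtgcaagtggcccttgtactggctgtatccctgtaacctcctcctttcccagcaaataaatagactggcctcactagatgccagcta
Cyp3a13 (chr5:137921620-137921869, minus): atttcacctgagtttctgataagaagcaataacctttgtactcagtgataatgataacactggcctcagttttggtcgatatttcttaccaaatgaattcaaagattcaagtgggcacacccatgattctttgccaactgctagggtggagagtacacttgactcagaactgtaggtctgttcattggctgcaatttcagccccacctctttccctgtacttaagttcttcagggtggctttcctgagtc
The Cyp3a11 window held each of the 4 motifs once. Those of Cyp3a25 and Cyp3a59 each held AGGTCA 2 times, facing each other, and the 2 windows differed at 11 of 250 bases. The Cyp3a13 window held none of these letters. Among 32817 promoters of the same length, AGGTCA was found in 14%, AGTTCA in 11.9%, TGTTTAC in 3.16% and CAAAGTCCA in 0.384%. TGTTTAC and CAAAGTCCA also occurred in the windows of Cyp3a16 and Cyp3a41a, and TGTTTAC in that of Cyp3a44. Of the half-sites, AGTTCA occurred in the Cyp3a41a window and AGGTCA in that of Cyp3a44, while the Cyp3a16 window held neither.

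Cyp3a11, the main drug-inducible member, made up 84.4% of the counts of the 7 genes, which together held 0.457% of all counts. To compare genes, CPM values (a gene's counts scaled to a common library total) were divided by transcript length in kb. On this scale Cyp3a11 averaged 1685 ± 545 CPM per kb (SD, n = 48 mice), Cyp3a25 319 ± 59.7, Cyp3a13 23.4 ± 4.52 and Cyp3a59 7.77 ± 3.47. Cyp3a44 averaged 0.620 ± 0.413, Cyp3a41a 0.384 ± 0.714 and Cyp3a16 0.135 ± 0.134 CPM per kb. Each of the first 4 genes stood above the next gene in that order in 48 of 48 mice. Below them the order was less firm, since Cyp3a44 exceeded Cyp3a41a in 37 mice and Cyp3a41a exceeded Cyp3a16 in 36.

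**Figure D1:**
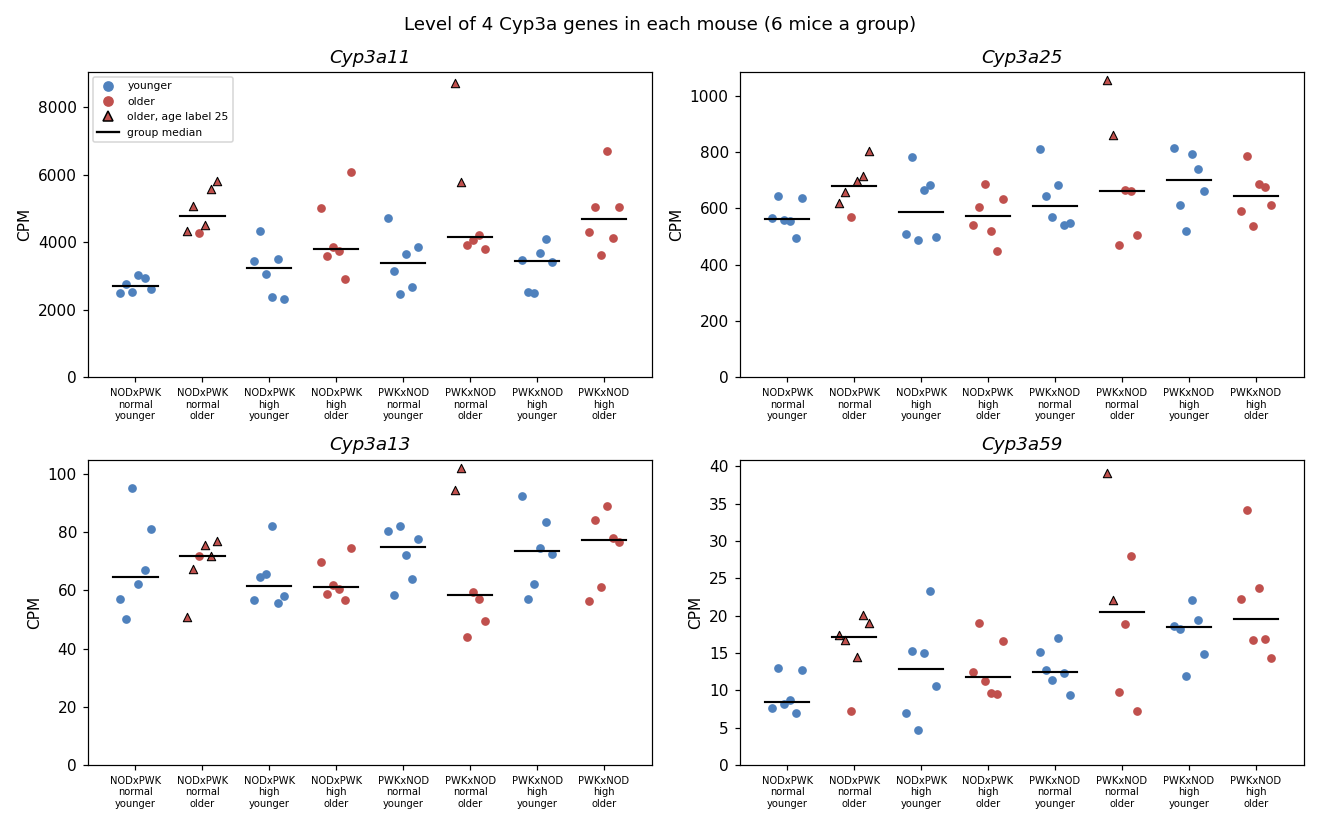
Levels in CPM of Cyp3a11, Cyp3a25, Cyp3a13 and Cyp3a59 by group (1 point per mouse, 6 mice per group, bar at the group median, triangles for older mice labelled 25). Cyp3a11 medians run from 2687 CPM in younger NODxPWK mice on the normal diet to 4777 in their older counterparts, while Cyp3a25 medians stay between 562 and 700.

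Cyp3a11 rose with age, and its median was higher in the older mice of both crosses on both diets. In NODxPWK mice on the normal diet it measured 2499 CPM at the lowest, 2687 at the median and 3038 at the highest in the younger mice, against 4283, 4777 and 5810 in the older ones. All 6 older mice stood above all 6 younger ones there, a separation seen in 1.24% of the 11979 genes tested. In NODxPWK mice on the high diet the younger values were 2322, 3247 and 4326 CPM and the older ones 2908, 3796 and 6067. In PWKxNOD mice on the normal diet they were 2462, 3394 and 4725 CPM in the younger and 3786, 4137 and 8720 in the older. In PWKxNOD mice on the high diet they were 2482, 3449 and 4092 CPM in the younger and 3631, 4672 and 6683 in the older. The older and younger mice overlapped in these 3 settings, in which 1.04%, 0.693% and 1.34% of genes did not overlap with the older mice higher.

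Over all groups Cyp3a11 averaged 4752 ± 1245 CPM (SD, n = 24) in older and 3147 ± 669 (n = 24) in younger mice. The log2 difference was 0.60 ± 0.09 (SE), a 1.51-fold rise, with an adjusted p of 5.68e-06 by edgeR's quasi-likelihood test. It was the 1 of 5 members tested that passed with age, where 12% of all genes passed. Older mice were higher in 6 of 6 lane sets, by 0.34 to 0.77 on the log2 scale. The sum of Cyp3a11 with the loci that share its reads gave the same 0.60 ± 0.09 (adjusted p = 5.70e-06, edgeR). The 2 PWKxNOD mice labelled 25 reached 5773 and 8720 CPM against 3786 to 4216 in the 4 labelled 24 of their group. The 5 NODxPWK mice labelled 25 held 4342 to 5810 CPM against 4283 in the 1 labelled 24. Without all 7 such mice the difference was 0.46 ± 0.10 (edgeR adjusted p = 0.00323). In a bulk sample, more cells of a type and more RNA per cell cannot be told apart. The summed level of 8 hepatocyte markers had a median of 113660 CPM in older and 104931 in younger mice. Bile duct markers (6 genes, of which 2 passed the filter on low counts) ran from 28.2 to 122 CPM (median 46.3) in older mice. In younger mice they ran from 23.9 to 40.04 CPM (median 31.7). Their sum did not overlap between the ages on the high diet in either cross. Of single genes, 1.04% (NODxPWK) and 1.34% (PWKxNOD) did not overlap there with the older mice higher. B cell and plasma cell markers (5 genes) ran from 2.46 to 8.37 CPM (median 4.79) in older and from 1.45 to 9.92 CPM (median 3.01) in younger mice. The part of these cell types in the result was not tested.

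Cyp3a25, a steroid-hydroxylating relative, did not pass the test with age. Its group medians ran from 562 CPM in younger NODxPWK mice on the normal diet to 700 in younger PWKxNOD mice on the high diet, and single mice from 447 to 1054. Every younger group overlapped its older counterpart. Its log2 difference with age was 0.05 ± 0.07 (edgeR adjusted p = 0.718), with an approximate 95% interval of -0.09 to 0.19 that lies below the Cyp3a11 estimate. Whether the age differences of the 2 genes differ was not tested. Cyp3a13, the outlying member, had group medians of 58.4 to 77.4 CPM and a log2 difference of -0.03 ± 0.08 (edgeR adjusted p = 0.900, interval -0.18 to 0.13). In the older PWKxNOD mice on the normal diet, the 2 labelled 25 held 94.6 and 102 CPM of Cyp3a13 and the 4 labelled 24 held 43.9 to 59.6. The same 2 mice had 859 and 1054 CPM of Cyp3a25 against 470 to 664 in those 4. Of these 2 mice, replicate 1 had the lowest depth of all (2.03 M expected counts) and replicate 2 had 281 CPM of exocrine pancreas markers. In the matching NODxPWK group, the 5 mice labelled 25 held 50.9 to 77.0 CPM of Cyp3a13 and the 1 labelled 24 held 72.0. For Cyp3a25 these values were 619 to 802 and 570 CPM.

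Cyp3a59 differed by cross, and its age difference lay at the threshold. In NODxPWK mice it measured 6.93, 8.40 and 13 CPM (lowest, median and highest) in the younger and 7.26, 17.1 and 20.1 in the older mice on the normal diet. On the high diet the values were 4.66, 12.8 and 23.2 CPM in the younger and 9.44, 11.8 and 19 in the older NODxPWK mice. In PWKxNOD mice they were 9.38, 12.5 and 17 CPM (younger, normal), 7.28, 20.5 and 39.1 (older, normal), 11.9, 18.4 and 22.1 (younger, high) and 14.3, 19.5 and 34.1 (older, high). Each PWKxNOD median was above that of the matching NODxPWK group, and every such pair of groups overlapped. PWKxNOD mice averaged 18.2 ± 7.60 CPM (SD, n = 24) and NODxPWK mice 12.8 ± 4.95 (n = 24). The log2 difference of PWKxNOD over NODxPWK was 0.48 ± 0.15 (SE, edgeR adjusted p = 0.0366), the 1 call among 5 members tested, where 10.7% of all genes passed. It was higher in 5 of 6 lane sets, with differences of -0.37 to 1.07.

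That cross difference of Cyp3a59 was lost in 9 of 16 other settings. Among them, edgeR gave an adjusted p of 0.215, 0.0810, 0.169 and 0.0585 without replicates 1, 2, 4 and 5, and of 0.0559 without the mice labelled 25. The crosses also differed in a clock score, the mean log2 CPM of 6 clock genes (Per2, Per3, Nr1d2, Ciart, Dbp, Tef) less that of 4 that peak at another phase (Clock, Arntl, Nfil3, Npas2). It ran from -2.82 to 2.55 (median 0.83) in NODxPWK and from 0.87 to 4.16 (median 2.80) in PWKxNOD mice. With the score as a covariate, Cyp3a59 was 0.42 ± 0.29 higher in PWKxNOD mice (edgeR adjusted p = 0.991). The sum of Cyp3a25, Cyp3a57 and Cyp3a59 differed by 0.15 ± 0.07 between the crosses (edgeR adjusted p = 0.212), and most of that sum is Cyp3a25. With age, Cyp3a59 differed by 0.44 ± 0.15 (edgeR adjusted p = 0.0504) and was higher in older mice in 6 of 6 lane sets. DESeq2 gave an adjusted p of 0.0293 and the fit with the lane set as a block 0.0321, while without the 7 mice labelled 25 the difference was 0.08 ± 0.22 (edgeR adjusted p = 0.911).

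No other member passed between the crosses. Cyp3a11 was 0.15 ± 0.09 (edgeR adjusted p = 0.345), Cyp3a25 0.14 ± 0.07 (0.239) and Cyp3a13 0.11 ± 0.08 (0.461) on the log2 scale, each positive for PWKxNOD. For Cyp3a11 the clock score also moved with age in the setting where the ages separated: in NODxPWK mice on the normal diet it lay between -2.67 and -0.27 in the older and between 0.83 and 1.92 in the younger mice. With the score in the model the Cyp3a11 age difference was 0.62 ± 0.11 (edgeR adjusted p = 0.000209).

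**Figure D2:**
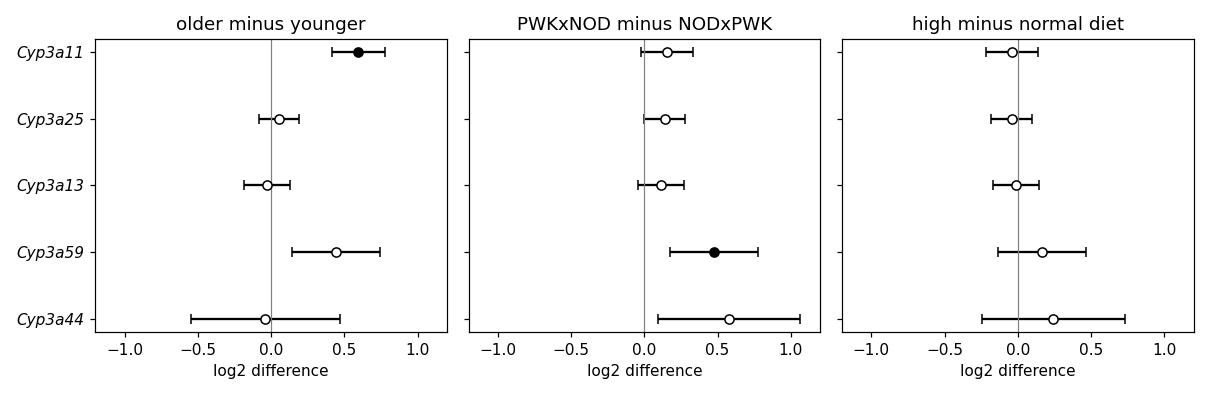
Log2 differences with age, cross and diet (point, with an approximate 95% interval) for the 5 members with enough counts to test. Filled points pass the adjusted threshold, which are Cyp3a11 with age and Cyp3a59 by cross, and the diet intervals all span 0.

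Vitamin D3 content of the diet went with no called difference in any member. Of 5 members tested 0 passed in edgeR, 0 in DESeq2 and 0 at an unadjusted p of 0.05, where 0.342% of all genes passed in edgeR. Of the 11979 genes tested, 124 passed in DESeq2 and 1323 at an unadjusted p of 0.05 in edgeR. Cyp3a11 on the high diet differed by -0.04 ± 0.09 on the log2 scale (edgeR adjusted p = 0.947), with an approximate interval of -0.22 to 0.14. Intervals were -0.18 to 0.10 for Cyp3a25, -0.17 to 0.14 for Cyp3a13, -0.14 to 0.47 for Cyp3a59 and -0.24 to 0.73 for Cyp3a44. A change of the size that Cyp3a11 showed with age lies outside the intervals of the first 4 genes but inside that of Cyp3a44.

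Split by age, Cyp3a11 differed by 0.08 ± 0.13 on the high diet in younger and by -0.16 ± 0.13 in older mice. In older mice 0 of 5 members passed in edgeR or DESeq2 or at an unadjusted p of 0.05. There 3.71% of all genes passed in edgeR, 534 genes in DESeq2 and 2006 at an unadjusted p of 0.05 in edgeR. In younger mice 0 of 5 passed by the same measures, where 0.00% of genes passed in edgeR, 10 in DESeq2 and 573 at an unadjusted p of 0.05 in edgeR. The test of whether the diet difference depended on age gave -0.23 ± 0.18 for Cyp3a11, -0.28 ± 0.14 for Cyp3a25 and -0.50 ± 0.31 for Cyp3a59. None of the 5 members passed in edgeR or DESeq2, or at an unadjusted p of 0.05. For this comparison 0.618% of genes passed in edgeR, 167 genes in DESeq2 and 1434 at an unadjusted p of 0.05 in edgeR. The same held for age by cross (0 of 5, against 0.0501% of genes in edgeR) and diet by cross (0 of 5, against 0.125%). In that order, 40 and 46 genes passed in DESeq2, and 1066 and 1668 at an unadjusted p of 0.05 in edgeR.

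Cyp3a16, Cyp3a41a and Cyp3a44 were close to the limit of detection in these male livers. Cyp3a16 is best known from fetal and newborn liver, and Cyp3a41a and Cyp3a44 from female liver. Cyp3a44 averaged 6.12 expected counts per mouse, Cyp3a41a 4.18 and Cyp3a16 1.28. The total was under 0.5 counts in 19 of 48 mice for Cyp3a16 and in 2 each for Cyp3a41a and Cyp3a44. A count of 0 allows up to 3 counts, or 0.395 to 1.60 CPM depending on the mouse, for counting error alone, so a value under that bound cannot be separated from 0.

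Cyp3a44 had its highest median in younger PWKxNOD mice on the high diet (0.487, 2.46 and 3.58 CPM at the lowest, median and highest). Medians of the 7 other groups ran from 0.713 to 1.49 CPM, and all groups overlapped. Its log2 difference was 0.58 ± 0.25 for PWKxNOD over NODxPWK (edgeR adjusted p = 0.135), -0.04 ± 0.26 with age (0.958) and 0.24 ± 0.25 with diet (0.805). Cyp3a41a ran from 0 to 10.3 CPM, with 1 mouse at 10.3 and every other mouse at or below 2.55. Cyp3a16 ran from 0 to 0.817 CPM. Neither passed the filter on low counts, so 5 of the 7 members were tested. In a fit that kept them, the age differences were 0.35 ± 0.43 for Cyp3a16 (edgeR adjusted p = 0.969) and -0.21 ± 0.34 for Cyp3a41a (1.00). By cross, Cyp3a41a was 1.02 ± 0.32 higher in PWKxNOD mice (edgeR adjusted p = 0.0520) and Cyp3a16 0.13 ± 0.42 (1.00). For diet by cross, Cyp3a41a had 1.76 ± 0.64 (unadjusted p = 0.00821, edgeR adjusted p = 0.345). The mouse at 10.3 CPM is a PWKxNOD mouse on the high diet, and it was part of these fits.

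**Figure D3:**
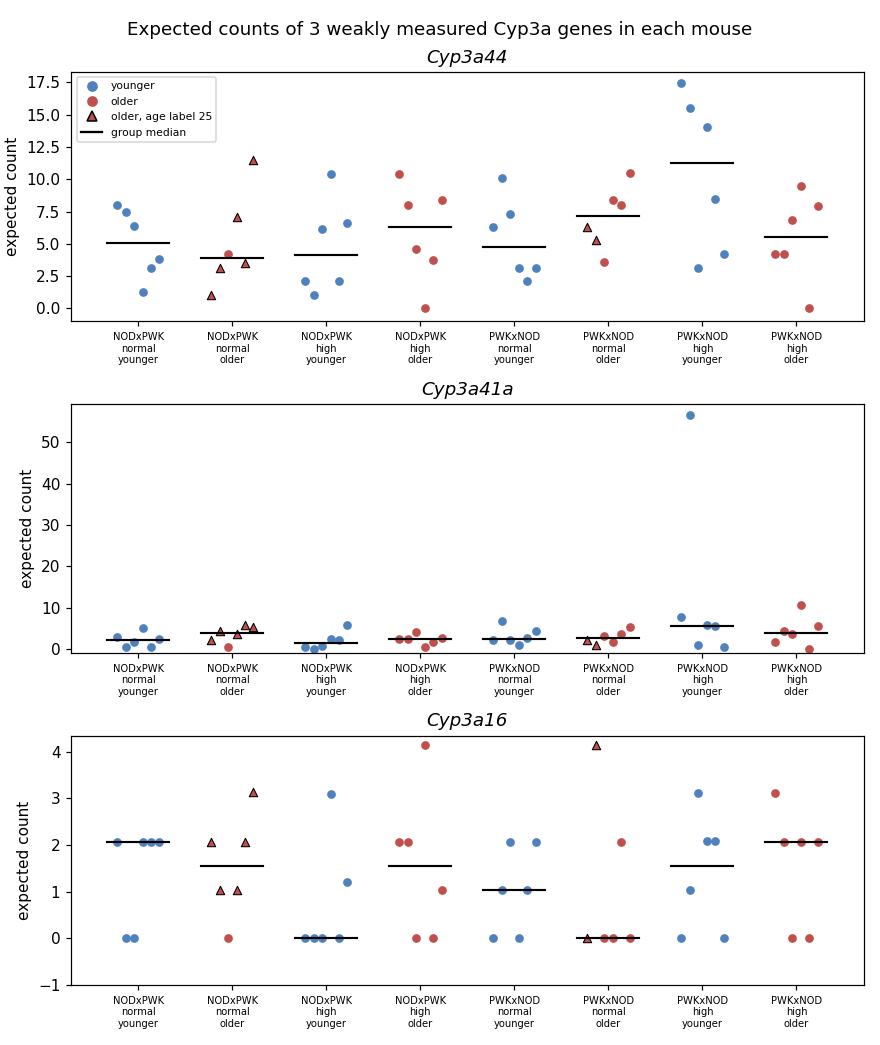
Expected counts (not scaled to depth) of Cyp3a44, Cyp3a41a and Cyp3a16 by group (1 point per mouse, bar at the group median, triangles for older mice labelled 25). All medians are at or below 11.3 expected counts, and 1 younger PWKxNOD mouse on the high diet holds 56.5 of Cyp3a41a.

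The parental alleles were unequal in all 4 members with enough counts for the allele test, against 43.6% of the 9362 autosomal genes tested. The PWK allele was the higher one for Cyp3a11, Cyp3a25 and Cyp3a13, and the NOD allele for Cyp3a59. Averaged over 48 mice, PWK supplied 54.7% ± 2.20 (SD) of Cyp3a11, 62.2% ± 2.93 of Cyp3a25, 83.4% ± 7.97 of Cyp3a13 and 8.56% ± 8.13 of Cyp3a59. The direction was the same in every mouse: the PWK share ran from 51.2% to 61.3% for Cyp3a11, 56.5% to 67.7% for Cyp3a25, 62.8% to 99.9% for Cyp3a13 and 0% to 33.8% for Cyp3a59. How many reads could tell the alleles apart is not known, so no counting interval is given for a share.

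In levels, the Cyp3a11 alleles averaged 2150 ± 660 CPM (PWK) and 1799 ± 627 CPM (NOD), and those of Cyp3a25 395 ± 66.2 and 243 ± 57.4 CPM (SD, n = 48). Cyp3a13 had 57.9 ± 13 CPM from PWK and 11.4 ± 5.82 from NOD. Cyp3a59 had 1.34 ± 1.44 CPM from PWK and 14.1 ± 6.55 from NOD, and the PWK count was under 0.5 in 16 mice. The log2 ratios of PWK over NOD were 0.28 ± 0.02 for Cyp3a11 (edgeR adjusted p = 3.17e-18), 0.72 ± 0.02 for Cyp3a25 (3.40e-27), 2.43 ± 0.13 for Cyp3a13 (4.37e-20) and -3.73 ± 0.28 for Cyp3a59 (3.53e-15). A ratio at least as far from 0 was found in 41.6% of the genes tested for Cyp3a11, 14.6% for Cyp3a25, 3.41% for Cyp3a13 and 2.02% for Cyp3a59.

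The allele difference of Cyp3a13 rests on no split with a paralog, since its transcript shares no window with another gene. A pseudogene, Gm15502, lies within Cyp3a13 on the same strand and averaged 1.57 counts per mouse. For the near copies, the alleles of the summed loci were compared. Cyp3a25, Cyp3a57 and Cyp3a59 together had a log2 ratio of 0.65 ± 0.02 (limma adjusted p = 2.82e-25), against 0.72 for Cyp3a25 alone and -3.73 for Cyp3a59 alone. The Cyp3a11 set together had 0.28 ± 0.02 (limma adjusted p = 6.84e-18). Whether PWK reads of Cyp3a59 were counted to Cyp3a25, and whether both alleles aligned equally well, was not tested. Cyp3a41a holds no allele information, as its NOD and PWK values were equal within 0.001 in 48 of 48 mice.

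**Figure D4:**
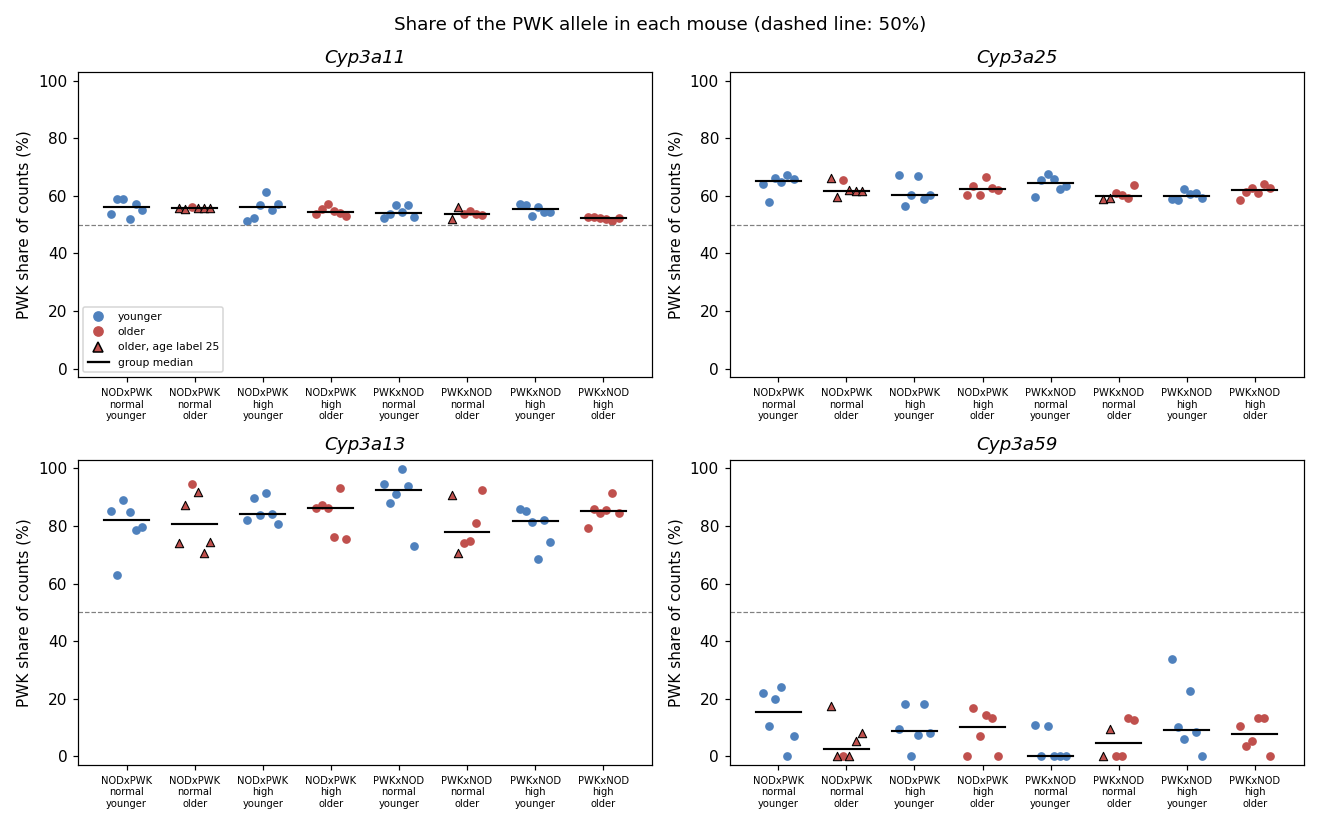
PWK share in percent of NOD plus PWK for Cyp3a11, Cyp3a25, Cyp3a13 and Cyp3a59 by group (1 point per mouse, bar at the group median, line at 50%). Every mouse lies above 50% for the first 3 genes and below it for Cyp3a59.

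No difference of these shares between groups passed the tests. Group medians of the Cyp3a11 PWK share ran from 52.2% in older PWKxNOD mice on the high diet to 56.1% in younger NODxPWK mice on the normal diet. Those of Cyp3a25 ran from 59.8% to 65.3%, those of Cyp3a13 from 77.8% to 92.4% and those of Cyp3a59 from 0% to 15.4%. Of the 4 genes 0 passed for maternal over paternal expression in edgeR or limma, where 0.267% of genes passed. Cyp3a11 had the smallest unadjusted p, 0.00905, for a log2 ratio of -0.05 ± 0.02 (edgeR adjusted p = 0.559), and it alone of the 4 was under 0.05. For the allele ratio by age 0 of 4 passed in edgeR or limma (0.705% of genes), and Cyp3a11 again alone had an unadjusted p under 0.05 (-0.07 ± 0.03, edgeR adjusted p = 0.767). For the ratio by diet 0 of 4 passed in edgeR or limma and 0 had an unadjusted p under 0.05, where 0.0214% of genes passed in edgeR. At an unadjusted p of 0.05 in edgeR, 436 of the 9362 genes passed for the ratio by diet. For the ratio by age 589 did so, and for maternal over paternal expression 497.

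Within groups, 5 of the 6 pairs among Cyp3a11, Cyp3a25, Cyp3a13 and Cyp3a59 had a positive relation that passed. The share of all gene pairs that would pass was not counted, so this count cannot be read as particular to the family. Genes outside the family, picked as the most alike, had r as high within groups (Cyp3a13 with Cd302 0.83, Cyp3a25 with Chpt1 0.82). Log2 CPM values with each group's mean subtracted were compared over 48 mice, for 18 relations among Cyp3a11, Cyp3a25, Cyp3a13, Cyp3a59, the receptors and Por, with 100000 permutations within groups. Cyp3a11 and Cyp3a25, which belong to different sets of shared reads, had r = 0.68 (rho = 0.61, permutation p = 1e-05 for r, the smallest these permutations give, and 0.00011 for rho, adjusted 9e-05 and 0.00099). Without the 2 mice farthest from the Cyp3a11 median r was 0.62. Within lane sets of 8 mice, r of log2 CPM without subtraction of group means was 0.12 to 0.81. Each lane set holds 1 mouse from each group, so the lane-set r, here and below, also carry the differences between groups. Whether a relation within groups held in each lane set was not tested. Subtracting group means leaves in place any difference between mice labelled 25 and the others of their group. In older PWKxNOD mice on the normal diet, those labelled 25 had more Cyp3a11, Cyp3a25 and Cyp3a13 than all the others. In the matching NODxPWK group this did not hold for Cyp3a13. The relations, here and below, were not tested without the mice labelled 25. Cyp3a13 had r = 0.60 with Cyp3a25 (rho = 0.53, permutation p = 0.00025 and 0.00055, adjusted 0.0011 and 0.0027, 0.49 without 2 mice, 0.40 to 0.85 within lane sets). With Cyp3a11 it had r = 0.52 (rho = 0.51, permutation p = 0.00075 and 0.00061, adjusted 0.0027 for both, 0.43 without 2 mice). The lane-set r of that pair ran from -0.56 to 0.87, so its sign was not the same in each set. Cyp3a25 and Cyp3a59 had r = 0.79, and these 2 genes share reads. Cyp3a11 and Cyp3a59 had r = 0.45 (rho = 0.40, permutation p = 0.0088 and 0.012, adjusted 0.018 and 0.027, 0.34 without 2 mice). Their lane-set r ran from -0.0094 to 0.80, again not of the same sign in each set. Cyp3a13 and Cyp3a59 did not pass (r = 0.31, rho = 0.27, permutation adjusted p = 0.13 for both, -0.19 to 0.72 within lane sets).

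**Figure D5:**
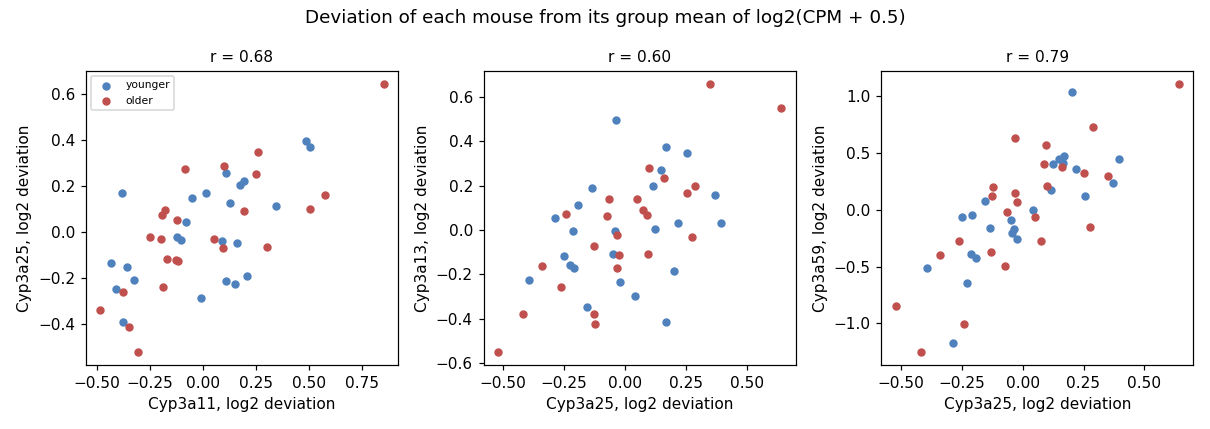
Log2(CPM + 0.5) of 3 pairs of members, with the mean of each mouse's group subtracted (1 point per mouse, 48 mice, colour for age). Mice with more Cyp3a25 for their group also had more Cyp3a11 (r = 0.68), Cyp3a13 (r = 0.60) and Cyp3a59 (r = 0.79). These relations were not tested without the mice labelled 25.

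Among the regulators, r with CAR passed the threshold for 3 of the 4 members and r with PXR for none. Nr1i3, which encodes CAR, had r = 0.64 with Cyp3a59, 0.59 with Cyp3a25 and 0.59 with Cyp3a13 (permutation adjusted p = 0.0011, 0.0042 and 0.0045). Its rho values were 0.50, 0.41 and 0.44 (permutation p = 0.0025, 0.014 and 0.008, adjusted 0.0089, 0.027 and 0.021), and without the 2 farthest mice r was 0.58, 0.41 and 0.46. Within lane sets these r ran from 0.38 to 0.81, 0.23 to 0.82 and 0.36 to 0.78. With Cyp3a11 it had r = 0.38 (rho = 0.25, permutation adjusted p = 0.065 and 0.17, -0.68 to 0.64 within lane sets). Nr1i2, which encodes PXR, had r of 0.19 to 0.36 with the 4 genes, and none passed after adjustment (smallest permutation adjusted p = 0.065). Por passed with Cyp3a13 alone (r = 0.55, rho = 0.47, permutation adjusted p = 0.0045 and 0.011). The lane-set r of Nr1i2 with Cyp3a11 ran from -0.74 to 0.46. How many of all genes would pass with Nr1i3 or Nr1i2 was not counted, so these calls cannot be read as particular to the family. Whether the r of Nr1i3 and Nr1i2 differ was not tested.

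The genes outside the family whose levels over the 48 mice were most like those of a member were picked from 10351 genes by Pearson's r, given as a description. For Cyp3a11 they were Aldh1a1, a retinaldehyde dehydrogenase (r = 0.81), Pgrmc1, a haem-binding partner of P450 enzymes (0.81), and Cyp2c50, another P450 (0.80). With group means subtracted these r were 0.66, 0.74 and 0.76. For Cyp3a25 they were Chpt1, a phosphatidylcholine-making enzyme (0.80), Abcc2, the canalicular exporter of conjugates (0.78), and Slc25a13, a mitochondrial carrier (0.75). For Cyp3a13 they were Cd302 (0.77), Spin1 (0.77) and F13b, a clotting factor subunit (0.74). For Cyp3a59 they were Mmd (0.73), Prdx6, a peroxiredoxin (0.73), and Ahr, the receptor for dioxins (0.72). For Cyp3a44, with few counts, they were Prlr, the prolactin receptor (0.63), Serpina6, which carries corticosteroids in blood (0.54), and Meaf6 (0.54).

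The known partners of the family were read next to Cyp3a11, in lists chosen with earlier results of these data known. Of 24 other targets of PXR and CAR, 12 rose and 0 fell with age (median log2 difference 0.42, against -0.004 over all genes), where 6.42% of all genes rose and 5.59% fell in edgeR. Aldh1a1 rose by 0.69 ± 0.07, Cyp2c50 by 0.61 ± 0.09, Ugt1a1, the bilirubin-conjugating enzyme, by 0.52 ± 0.06, and Ephx1, an epoxide hydrolase, by 0.51 ± 0.06. Aldh1a1 and Cyp2c50 were also picked above from these mice as most like Cyp3a11, so their rise is not independent of its rise. Without the mice labelled 25, 6 of the 24 rose and 0 fell (median 0.27, 2.84% of all genes higher), without the pancreas mice 10, and with the clock score 11. The receptors themselves did not pass: Nr1i2 differed by -0.09 ± 0.09 (edgeR adjusted p = 0.622) and Nr1i3 by 0.21 ± 0.18 (0.550). Of 22 receptors and transcription factors 2 rose (Nfil3 by 0.54 ± 0.10, Ahr by 0.35 ± 0.10) and 2 fell (Dbp with -1.30 ± 0.23, Tef with -0.41 ± 0.10, both clock-driven), with a list median of -0.08. Of 14 genes of electron transfer and haem synthesis 6 rose and 2 fell (median 0.07). Among them Pgrmc1 rose by 0.30 ± 0.04, Alad by 0.33 ± 0.06 and Cyb5a by 0.29 ± 0.05, Hmox1 fell with -0.46 ± 0.10, and Por differed by -0.21 ± 0.15 (edgeR adjusted p = 0.433).

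Sex-biased and zonal genes of the liver also moved with age. Of 8 female-biased genes tested, 5 fell and 0 rose (median -1.08), with Sult2a1 at -2.76 ± 0.46, Cyp17a1 at -1.53 ± 0.21 and Cyp2a4 at -1.26 ± 0.17. Of 18 male-biased genes 7 rose and 0 fell (median 0.19), among them Susd4 (1.18 ± 0.09), Cspg5 (0.83 ± 0.13), Gstp1 (0.33 ± 0.07) and C8a (0.26 ± 0.05). The female-predominant member Cyp3a44 did not pass in either direction. Of 14 growth hormone axis genes 2 rose and 4 fell (median -0.05), with Socs2 at -1.10 ± 0.23, Igfbp1 at -1.03 ± 0.18, Igf1 at -0.27 ± 0.05 and Igfbp2 at 0.44 ± 0.10. Of 12 pericentral hepatocyte genes, from the zone where Cyp3a enzymes are most abundant, 6 rose and 0 fell (median 0.22), including Lgr5 (0.73 ± 0.16), Lect2 (0.45 ± 0.06) and Cyp1a2 (0.27 ± 0.05). Of 12 periportal genes 0 rose and 8 fell (median -0.31), including the urea cycle genes Cps1 (-0.42 ± 0.07), Ass1 (-0.42 ± 0.08), Arg1 (-0.41 ± 0.07) and Asl (-0.38 ± 0.08). Without the mice labelled 25, where 2.84% of all genes rose and 3.11% fell, 5 of 10 female-biased genes tested fell, 5 male-biased genes rose, 3 pericentral genes rose, 8 periportal genes fell and 2 growth hormone axis genes fell. In that setting 2 genes of electron transfer and haem synthesis rose and 1 fell, and 1 receptor or transcription factor rose and 3 fell. With the clock score as a covariate, where 3.68% of all genes rose and 2.496% fell, 4 of the 12 periportal genes fell. In that setting 0 receptors or transcription factors rose and 1 fell, but Dbp, Tef and Nfil3 of that list are part of the score itself. What this fit gives for them was fixed in part beforehand, so that count cannot be read as a result. In the other lists, 4 of the 8 female-biased genes tested fell, 6 male-biased genes rose and 5 pericentral genes rose. Of the growth hormone axis genes 2 rose and 2 fell, and of those of electron transfer and haem synthesis 4 rose and 2 fell. Without the pancreas mice, where 3.89% rose and 3.43% fell, 5 of the 8 female-biased genes tested fell, 5 male-biased genes rose, 6 pericentral genes rose and 7 periportal genes fell. There 2 receptors or transcription factors rose and 2 fell, 2 growth hormone axis genes rose and 3 fell, and 4 genes of electron transfer and haem synthesis rose and 2 fell.

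Between the crosses, Por was 1.25 ± 0.16 higher on the log2 scale in PWKxNOD mice (edgeR adjusted p = 1.15e-07) and Alas1, which starts haem synthesis, 1.58 ± 0.29 (0.000141). Cyb5b, an outer mitochondrial cytochrome b5, was the 1 gene of the 14 that was lower (-0.18 ± 0.05), where 5.36% of all genes were higher and 5.33% lower. Of the 22 receptors and factors 5 were higher and 2 lower in PWKxNOD mice (Dbp 1.73 ± 0.23, Tef 0.82 ± 0.10, Nr1h4 0.30 ± 0.05, Nfil3 -0.63 ± 0.10). Nr1i3 differed by 0.51 ± 0.18 (edgeR adjusted p = 0.0611) and Nr1i2 by 0.15 ± 0.09 (0.360). Of the 24 targets 3 were higher and 3 lower (Akr1b7 0.88 ± 0.21, Cyp2a5 0.84 ± 0.16, Gsta2 -0.46 ± 0.13, Cyp2b9 -2.12 ± 0.33). Female-biased genes were higher in 3 cases and lower in 1 (Sult2a1 2.78 ± 0.52), and male-biased genes higher in 4 and lower in 1 (Elovl3 -1.10 ± 0.15). Growth hormone axis genes were higher in 1 and lower in 1, pericentral genes higher in 3 and periportal genes higher in 2. With the clock score as a covariate 1 gene in all 8 lists, a female-biased one, was still called by cross, where 0.225% of all genes were higher and 0.292% lower. Dbp, Tef and Nfil3 are part of that score, so what this fit gives for them was fixed in part beforehand.

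With diet, calls among these lists were found mainly in older mice, and without the mice labelled 25 a single one, the pericentral gene Glul, was left there. In older mice on the high diet 9 of the 24 targets were lower and 0 higher (median -0.33), where 1.81% of all genes were lower and 1.90% higher. They included Gsta2 (-0.83 ± 0.18), Ephx1 (-0.57 ± 0.09), Gstm1 (-0.53 ± 0.12) and the exporter Abcc3 (-0.47 ± 0.10). Nr1i2 was lower as well (-0.42 ± 0.13, edgeR adjusted p = 0.0478), and Nr1i3 did not pass (-0.84 ± 0.26, 0.0544). Cyp3a11 differed by -0.16 ± 0.13 in the same fit (edgeR adjusted p = 0.589), and a difference between it and those targets was not tested. Of these older normal-diet mice 7 of 12 carried the label 25, and without them 0 of the 24 targets passed in either direction, with a median of 0.01. In that setting 0.031% of all genes were higher and 0.0077% lower, so calls were nearly absent over all genes too. Without the mice with pancreas transcripts 0 passed as well (median -0.31), where 0.098% of all genes were higher and 0.057% lower. With the clock score 2 were lower (median -0.35), where 0.175% of all genes were higher and 0.267% lower. Of the 18 male-biased genes 8 were higher and 1 lower, with Hsd3b5 at 0.45 ± 0.09 and Serpina12 at 0.99 ± 0.21, and 0 passed in any of these 3 settings. Over both ages the diet calls in these lists were Ephx1 (-0.30 ± 0.06) and the pericentral gene Oat (-0.45 ± 0.11), both lower on the high diet. The age by diet test passed in 3 of the 24 targets, Cyp2b10 (-1.85 ± 0.34), Abcc3 (-0.58 ± 0.14) and Ephx1 (-0.52 ± 0.13), where 0.618% of all genes passed. It also passed in 2 male-biased genes (positive) and 1 growth hormone axis gene (negative). List calls for this comparison were not counted without the mice labelled 25.

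Depth and tissue makeup were as follows. Expected counts summed to 2.03 to 7.48 M per mouse (M, mega-counts, median 5.27 M), and the 6 mice of the shallowest barcode had 2.03 to 3.09 M. The 8 hepatocyte markers summed to 81831 to 140723 CPM and the markers of endothelium, Kupffer cells, stellate cells, bile duct, B cells and T cells to medians of 279, 106, 131, 38.2, 4.19 and 3.40 CPM. Erythroid markers had a median of 331 CPM. The 10 exocrine pancreas markers ran from 15.2 to 1926 CPM (median 32.6), and 10 mice, 7 older and 3 younger, were at 60 CPM or more. Without these 10 mice Cyp3a11 was 0.53 ± 0.10 higher in older mice (edgeR adjusted p = 0.000744).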

How the data were processed

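Liver mRNA of 48 male F1 mice was sequenced, per the labels' protocols, as 68 bp single-end reads from poly-A selected, unstranded TruSeq libraries of RNA extracted with Trizol from tissue kept in RNAlater. Each mouse was run on 2 flowcells, and the joining of these runs was not given in the sources used here. What the authors deposited are expected counts per gene and allele (estimated counts that need not be whole, not scaled to depth), named as EMASE output. The submitters' processing notes list Bowtie 1.1.2 and CASAVA 1.7.0, with mm10 and GRCm38 as builds. An EMASE version or annotation was not given in the sources used here. Identifiers of 37607 out of 38924 genes were matched to the annotation of GRCm38, and the other 1317 held 0.159% of the counts. Reference promoter sequences are RefSeq's.

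NOD and PWK counts were summed, rounded and filtered with filterByExpr (11979 genes left), scaled by TMM and fitted with 8 group means in edgeR 4.0.16 (R 4.3.3, robust quasi-likelihood test, two-sided). The biological coefficient of variation was 16.6%. P-values were adjusted by Benjamini-Hochberg over all genes with a threshold of 0.05. Alleles were tested with NOD and PWK columns per mouse and the mouse as a fixed effect, for the 9362 autosomal genes whose mean count reached 20. P-values measure the spread between the mice. The tests were checked on simulated data. A pseudocount of 0.5 was added to CPM before taking log2. Approximate intervals are the estimate plus or minus the normal quantile times SE.

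The members and lists were chosen with earlier results of these data known. Named are all members, Nr1i2, Nr1i3 and Por, up to 4 called genes per list and comparison by p-value, and the 3 genes most like each member tested. Some genes that this rule names are not reported here. Other settings tried were RLE size factors, DESeq2 1.42.0, other filters, no rounding, a block, limma 3.58.1 on log2 allele ratios, and leaving out lane sets, mice labelled 25 or the shallowest barcode. Leaving out mice with pancreas transcripts, the clock score and summed loci were added after seeing the data.

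Lanes held 1 mouse from each group, and replicate numbers stand for these lane sets. The pairing was checked on deviations from the group means: a correlation above 0.1 was seen in 29 of 168 pairs from the same lane set (mean -0.00468, against 0.00112 for other pairs), and 7 of 48 mice correlated best with their own set. Chi-square per gene was 4.59 to 57.4 over 120 replicate pairs, so none was a library deposited again.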

Additional observations from a re-analysis of the deposited data

Results flagged for a closer look

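Of 88 groups of 6 mice examined, 6 held a value far from the other 5, and chance alone flags about 1 in 20 groups. The most distant was Cyp3a41a in replicate 2 of the younger PWKxNOD mice on the high diet, with 10.3 CPM (56.5 expected counts) against 1.58 CPM in the next mouse. In that mouse Cyp3a44 was at 2.82 CPM and ranked 4 of 48, while Cyp3a11 was at 2515 CPM and ranked 43. Female-biased genes ranked variously in it, Abcd2 at 2, Cyp2a4 and Sult2a1 at 3, Hao2 at 11, Cyp17a1 at 14, Cyp2b9 at 17 and Prom1 at 23 of 48. Another mouse of its group had more Sult2a1 (37 against 14.9 CPM) and Cyp2a4 (351 against 336 CPM). Its exocrine pancreas markers summed to 29.6 CPM. Since 96.04% of the Cyp3a41a windows occur in another gene, the value also depends on how reads were split, which was not tested.

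Cyp3a41a also stood apart in replicate 4 of the older PWKxNOD mice on the high diet (2.55 CPM, nearest 0.817) and in replicate 2 of the younger PWKxNOD mice on the normal diet (1.21 CPM, nearest 0.673). Cyp3a16 did so in replicate 4 of the younger NODxPWK mice on the high diet (0.520 CPM, nearest 0.177), a value of a few reads. Cyp3a13 was low in replicate 1 of the older NODxPWK mice on the normal diet (50.9 CPM, nearest 67.5). The PWK share of Cyp3a25 was low in replicate 2 of the younger NODxPWK mice on the normal diet (57.8%, nearest 64.1%).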

How the results depend on the processing

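The Cyp3a11 rise with age passed the threshold in all 17 alternative settings run, with log2 differences of 0.46 to 0.65. The number of members called with age was 1, or 2 with DESeq2 and with the lane set as a replicate block, in both cases through Cyp3a59. Between the crosses 1 member (Cyp3a59) was called, and 0 with the clock score as a covariate, with all genes of at least 1 count in any mouse, or when the pancreas mice, the shallowest barcode or the mice labelled 25 were left out. Leaving out 1 lane set at a time left 0 to 1 calls there (0 without replicates 1, 2, 4 or 5). The block changed no other call. The causes were not tested. Of the single values, 502 kept their direction and call, 27 changed sign, 2 gained and 9 lost a call.

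The values that changed sign were up to 0.30 in size. Where the largest were found, the main fit had -0.14 ± 0.26 (Cyp3a13, allele ratio by age), -0.23 ± 0.29 (Cyp3a59, maternal over paternal) and -0.50 ± 0.31 (Cyp3a59, age by diet). Without the mice labelled 25 they were -0.080 for Cyp3a25 and 0.024 for Cyp3a44 with age; 0.10, 0.062 and 0.096 for Cyp3a11, Cyp3a13 and Cyp3a25 with diet; and 0.047 and 0.23 for Cyp3a11 and Cyp3a59 for age by diet. For alleles, the same setting gave -0.15 (Cyp3a13) and 0.28 (Cyp3a59) for maternal over paternal, and 0.30 (Cyp3a13) and 0.0041 (Cyp3a25) for the ratio by age. With the clock score Cyp3a13 had 0.052 with age and -0.048 by cross, and Cyp3a44 0.018 with age. Without the pancreas mice Cyp3a44 had 0.13 with age and Cyp3a13 -0.056 for age by diet. Without the shallowest barcode Cyp3a13 had 0.012 with diet. Leaving out each lane set in turn gave -0.12 to 0.043 (Cyp3a13) and -0.18 to 0.11 (Cyp3a44) with age. With diet it gave -0.059 to 0.015 for Cyp3a11, -0.059 to 0.019 for Cyp3a25 and -0.054 to 0.028 for Cyp3a13. For Cyp3a13 it gave -0.052 to 0.17 for age by diet, -0.37 to 0.013 for the allele ratio by age and -0.46 to 0.033 by diet. Low counts limit what can be read from Cyp3a16, Cyp3a41a and Cyp3a44, whose means are 1.28, 4.18 and 6.12 counts per mouse.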
